A study of Arabidopsis thaliana with 15 samples.

Results

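Exportins, importin beta 1 and Ran move proteins and RNAs through the nuclear pore, and the 9 genes described here encode such proteins in Arabidopsis thaliana. They are the exportin genes XPO1A (AT5G17020), XPO1B (AT3G03110), PSD (AT1G72560, PAUSED), HST (AT3G05040, HASTY) and CAS (AT2G46520), the importin beta 1 gene KPNB1 (AT5G53480), and the Ran genes RAN1 (AT5G20010), RAN2 (AT5G20020) and RAN3 (AT5G55190). They were picked by locus out of 27444 nuclear protein-coding genes, by a rule that uses no measured value, though with earlier results of these data known. A gene was counted as having a peak in a library when a peak summit lay from 1000 bp outside to 200 bp inside either of its ends.

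Chromatin from dissected inflorescence meristems was precipitated with an antibody against GFP and sequenced (ChIP-seq), and the authors deposited 1 list of peaks, called relative to input, for each of 8 libraries. The plants were of the Col0 background. They carried GFP-MYB3R1 under pMYB3R1 (3 libraries), GFP-MYB3R4mNES under pMYB3R4 (2 libraries) or GFP-MYB3R4 under pMYB3R4 (3 libraries). MYB3R1 and MYB3R4 are transcription factors with 3 MYB repeats, and the labels do not spell out mNES (NES commonly stands for nuclear export signal). Each tagged protein was driven by the promoter of its own or the parent gene, the labels name no mutation of the native genes, and the samples here include no ChIP from untagged plants. A peak list cannot check the labelled tissue against marker genes. Whether replicates were separate plants is not stated, so a p-value across libraries speaks only for these libraries, whose differences may be technical.

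The exportins and importins are carriers that bind cargo on one side of the nuclear envelope and release it on the other. Ran is the small GTPase that sets the direction: in its GTP form, which prevails in the nucleus, it loads exportins with cargo and strips cargo from importins. XPO1, also called CRM1, is the carrier that recognises leucine-rich nuclear export signals. In animal cells Ran also acts in mitosis, where Ran-GTP around chromosomes frees spindle assembly factors such as TPX2 from importins.

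The libraries differed widely in how many peaks they held, and this bears on every count below. The lists held 11478, 19655 and 7089 nuclear peaks in MYB3R1 replicates 1, 2 and 3, 227 and 256 in MYB3R4mNES replicates 1 and 2, and 786, 2717 and 456 in MYB3R4 replicates 1, 2 and 3. Read depth is unknown, so a missing peak means only that none was called with the reads of that library. The peaks in the list of MYB3R4mNES replicate 1 carried inside the file the same name stem as those of MYB3R4 replicate 3, although no nuclear peak had the same start and end in both. Of the 227 nuclear peaks of MYB3R4mNES replicate 1, 75.8% overlapped a peak of MYB3R4mNES replicate 2 and 88.1% one of MYB3R4 replicate 3. In the other direction, 64.5% of the 256 peaks of MYB3R4mNES replicate 2 and 45.2% of the 456 peaks of MYB3R4 replicate 3 overlapped it. None of these 3 lists held a peak at any of the 9 genes, so no fold enrichment or position given below comes from them, though they count as libraries without a peak in the group means. The mean number of the 9 genes with a peak was 5.67 higher in MYB3R1 than in MYB3R4 libraries, and 5.5 higher without MYB3R4 replicate 3. For this number the difference MYB3R4mNES minus MYB3R4 was -0.333 with and without MYB3R4mNES replicate 1 or 2. It was -0.5 without MYB3R4 replicate 3. The mean share of all genes with a peak was 46.3% in MYB3R1, 0.68% in MYB3R4mNES and 3.9% in MYB3R4 libraries.

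Peaks at the 9 genes were found in the MYB3R1 libraries and, at RAN1, in 1 MYB3R4 library. MYB3R1 replicates 1, 2 and 3 had peaks at 5, 9 and 4 of the 9 genes. In the same libraries 43.6%, 65.9% and 29.5% of all genes had a peak. The 2 MYB3R4mNES libraries had a peak at none of the 9, where 0.612% and 0.747% of all genes had one in replicates 1 and 2. MYB3R4 replicates 1, 2 and 3 had peaks at 0, 1 and 0 of the 9, beside 1.29%, 9.12% and 1.3% of all genes. The mean number of the 9 genes with a peak was 6.0 ± 2.65 in MYB3R1 (SD, n = 3), 0 in both MYB3R4mNES libraries and 0.333 ± 0.577 in MYB3R4 libraries (SD, n = 3). Every MYB3R1 library lay above every library of the other groups, as it did in its share of all genes.

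**Figure D1:**
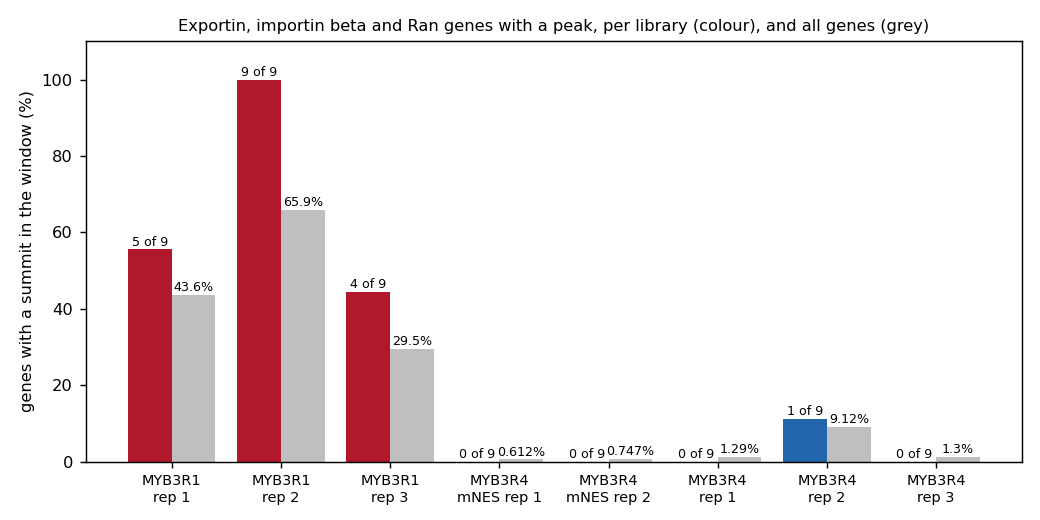
Percent of the 9 exportin, importin beta and Ran genes (coloured bars, with the number of genes) and of all 27444 nuclear protein-coding genes (grey bars) that had a peak summit in the window, for each of the 8 ChIP libraries on the x axis. In each MYB3R1 library the coloured bar stands above the grey one, with 5, 9 and 4 of 9 genes beside 43.6%, 65.9% and 29.5% of all genes, and outside MYB3R1 only MYB3R4 replicate 2 has a coloured bar, of 1 gene.

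In MYB3R1, 5 of the 9 genes (55.6%) had a peak in at least 2 libraries, beside 44.8% of all genes. In MYB3R4mNES 0 of 9 did, beside 0.434% of all genes, and in MYB3R4 0 of 9, beside 1.4%. The 5 genes were XPO1A, XPO1B, CAS, RAN1 and RAN2. XPO1A, CAS and RAN2 had peaks in all 3 MYB3R1 libraries and in none of the other groups, a pattern shown by 21.1% of all genes. PSD, HST, KPNB1 and RAN3 had a peak in MYB3R1 replicate 2 only, the longest list, as did 20.6% of all genes. With peaks of -log10 q of at least 10 the share stayed at 5 of 9 genes, beside 25.1% of all genes, and with each summit given to the nearest gene end only at 5 of 9, beside 31% of all genes. With a window of 500 bp outside the gene it was 4 of 9, beside 37.5% of all genes. With 2000 bp it was 7 of 9, beside 54.4%, and the genes added were HST and RAN3. The summits that added them lay nearer to an end of another gene, AT3G05035 and AT5G55180. The median number of libraries with a peak was 2 over the 9 genes and 1 over all genes. No gene could pass a test of peak against no peak: by Fisher's exact test, two-sided, 3 of 3 MYB3R1 against 0 of 3 MYB3R4 libraries gives p = 0.10, the smallest possible, and an adjusted p of 0.472 after Benjamini-Hochberg adjustment over 27444 genes. No gene of the genome passed 0.05 with or without adjustment in this comparison (0%) or in that of MYB3R4mNES with MYB3R4 (0%). For RAN1, with 3 of 3 MYB3R1 and 1 of 3 MYB3R4 libraries, the exact p was 0.40.

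Of the Ran genes, RAN1 had the highest-fold peak of the 9 genes in each MYB3R1 library, with a fold enrichment over the input background of 6.29, 7.88 and 4.31 in MYB3R1 replicates 1, 2 and 3, and of 2.32 in MYB3R4 replicate 2. It had no peak in either MYB3R4mNES library or in MYB3R4 replicates 1 and 3. Fold enrichments are the authors' values for each peak, and since the lists differ in length they are ranked here only within a list. The RAN1 peak lay at the 95.2, 98.9 and 95.6 percentiles of fold enrichment in the lists of MYB3R1 replicates 1, 2 and 3, and at the 77.0 percentile in that of MYB3R4 replicate 2. It was thus among the stronger peaks of every MYB3R1 list. By -log10 p its rank was 445.5 of 11478, 224 of 19655 and 285 of 7089 in MYB3R1 replicates 1, 2 and 3, and 688 of 2717 in MYB3R4 replicate 2.

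The RAN1 peak sat at the lower-coordinate end of the gene on chromosome 5. The reference table gives no strand, so gene ends are named by coordinate, and whether an end is the start of transcription was not determined. In MYB3R1 replicate 2 the peak covered chr5:6759503-6760651 (TAIR10) with its summit at position 6760120, 26 bp inside the gene. The summits of MYB3R1 replicates 1 and 3 lay 147 and 97 bp inside, within 121 bp of each other over the 3 libraries. The MYB3R4 replicate 2 peak covered chr5:6759741-6760262 with its summit 79 bp outside the same end, and its interval lay wholly within those of the 3 MYB3R1 peaks. All 4 peaks thus formed a single site. No other MYB3R4 peak had its summit in the window of any of the 9 genes. The -log10 q of this MYB3R4 peak was 9.33, so with a cutoff of 10 no MYB3R4 library counted for RAN1.

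RAN2 lies next to RAN1, with 238 bp between the genes. Its peaks were enriched 4.64, 4.64 and 2.93 fold in MYB3R1 replicates 1, 2 and 3, at the 86.3, 89.4 and 83.9 percentiles of their lists, and the MYB3R4mNES and MYB3R4 libraries had none. The summits lay 23, 77 and 141 bp inside the lower-coordinate end of RAN2, and 262, 316 and 380 bp outside the higher-coordinate end of RAN1. This second peak therefore also counted for RAN1, but RAN2 was the nearer gene in all 3 libraries. The pair held separate peaks in every MYB3R1 library, and the one at the outer end of RAN1 was the stronger each time. The nearest gene on the other side of RAN1, AT5G20000, has its end 215 to 441 bp from the RAN1 summits, so RAN1 was nearer in all 4 libraries.

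**Figure D2:**
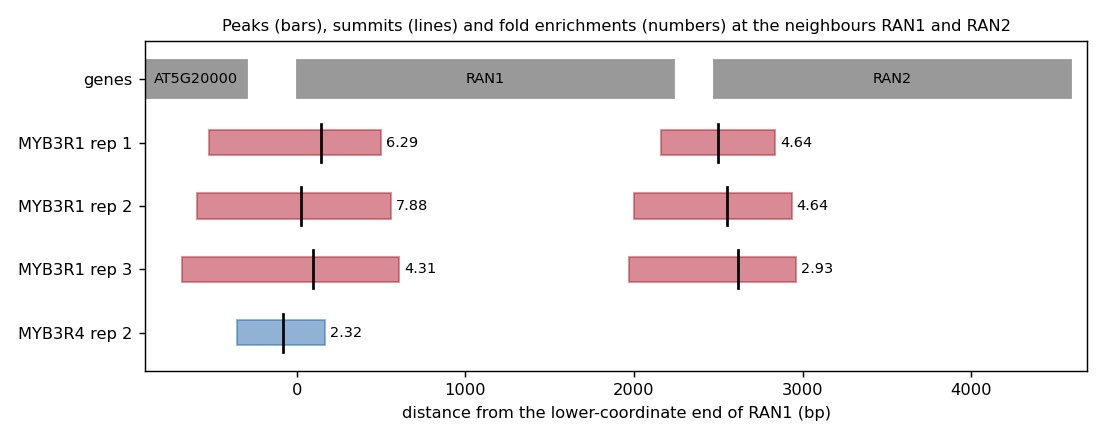
Map of the neighbours RAN1 and RAN2 (grey boxes, with the adjoining part of AT5G20000, cut at the left edge), with distance in bp from the lower-coordinate end of RAN1 on the x axis. Bars are peaks, black lines their summits and numbers their fold enrichments in the 4 libraries with a peak here. Each MYB3R1 library shows a peak at the outer end of RAN1 (6.29, 7.88 and 4.31) and a weaker one at the near end of RAN2 (4.64, 4.64 and 2.93), and MYB3R4 replicate 2 shows only the first (2.32).

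RAN3, on another part of chromosome 5, had a peak in MYB3R1 replicate 2 alone. Its fold enrichment was 3.31, at the 67.2 percentile of the list, with the summit 93 bp inside the lower-coordinate end. A weaker peak of 2.26 fold lay 325 bp outside the other end, where AT5G55200 was the nearer gene. All 3 MYB3R1 libraries had a further peak between 1903 and 1953 bp outside the lower-coordinate end of RAN3, beyond the window and inside AT5G55180, with fold enrichments of 2.75, 3.65 and 2.47 in replicates 1, 2 and 3. In the window used, RAN1 and RAN2 thus had peaks in every MYB3R1 library, against 1 of 3 for RAN3. With a window of 2000 bp RAN3 also counted in all 3, through the peaks inside AT5G55180.

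Of the exportins, XPO1A and CAS had a peak in every MYB3R1 library. That of XPO1A was enriched 4.44, 4.85 and 2.09 fold in MYB3R1 replicates 1, 2 and 3, and no other library had one. They stood at the 84.3 and 91.1 percentiles in replicates 1 and 2 but at the 38.8 percentile in replicate 3. The summits lay 75, 62 and 8 bp inside the lower-coordinate end, within 67 bp of each other, and in replicate 2 the peak covered chr5:5594372-5595079. Replicate 2 also had a weak peak of 1.82 fold beyond the other end, 148 bp from XPO1A and 16 bp from its neighbour UGT78D3 (AT5G17030). XPO1B, the second gene for this carrier, had peaks of 3.54 and 3.43 fold in MYB3R1 replicates 1 and 2, at the 68.1 and 70.3 percentiles, with summits 93 and 49 bp inside its lower-coordinate end. A further XPO1B peak in replicate 2, of 2.86 fold at the 53.7 percentile, lay 13 bp outside the other end. In MYB3R1 replicate 3 a peak of 1.72 fold, at the 4.76 percentile, covered chr3:708735-709142, but its summit lay 240 bp inside and so just missed the window. The XPO1B peaks of replicates 1 and 2 lay lower in their lists than those of XPO1A.

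CAS, whose yeast and human counterparts return importin alpha to the cytoplasm, had peaks in all 3 MYB3R1 libraries and in no other. Its highest-fold peaks within the window were 3.45, 3.80 and 2.01 in replicates 1, 2 and 3, at the 65.6, 78.1 and 30.4 percentiles. Their summits lay 815, 720 and 728 bp outside the higher-coordinate end, each within the long noncoding RNA gene AT2G09730. With the window at 500 bp CAS kept a peak in 1 library, replicate 1, where a second and weaker peak of 2.32 fold lay 50 bp inside the other end. Peaks of all 3 MYB3R1 libraries covered that end, at chr2:19095568-19096847, 19093034-19097081 and 19096087-19097037 in replicates 1, 2 and 3. In replicates 2 and 3 their summits lay 1379 bp outside and 401 bp inside it, beyond the window. On that other side all 3 MYB3R1 libraries had summits 1214 to 1379 bp outside CAS, beyond the window. These peaks were stronger than those within it, with 4.46, 4.85 and 2.17 fold at the 84.5, 91.1 and 46.3 percentiles in replicates 1, 2 and 3. MYB3R4 replicate 2 had peaks there too, of 1.84 fold at 1358 bp outside the lower-coordinate and 1.98 fold at 1411 bp outside the higher-coordinate end. With a window of 2000 bp CAS therefore counted in 4 libraries, 3 MYB3R1 and 1 MYB3R4. In MYB3R1 replicate 2 the peaks around CAS were wide, 4048 and 2222 bp, where the median nuclear peak of that list had 728 bp.

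PSD, the exportin for tRNAs, and HST, which is known for its role in microRNA pathways, each had a peak in the window in MYB3R1 replicate 2 only. At PSD the fold enrichment was 3.39, at the 69.2 percentile, with the summit 52 bp inside the higher-coordinate end. A weaker PSD peak of 1.69 fold, at the 3.29 percentile, lay 332 bp outside the other end, inside AT1G72550. At HST the fold enrichment was 1.98, at the 15.1 percentile. The HST summit lay 314 bp outside the higher-coordinate end and 59 bp from the end of AT3G05050, in which it lay. Given to the nearest gene end only, HST had a peak in no library. HST also had summits just beyond the window, 1004 and 1048 bp outside its lower-coordinate end in MYB3R1 replicates 1 and 2 (fold enrichments 2.31 and 3.24), inside the long noncoding RNA gene AT3G01585. KPNB1, the import carrier that works with importin alpha, had peaks of 2.08 fold, 410 bp outside its lower-coordinate end, and 1.82 fold, 371 bp outside its higher-coordinate end, both in MYB3R1 replicate 2. The neighbour ACBP1 (AT5G53470) was nearer to the first, at 221 bp. The KPNB1 peaks stood at the 20.4 and 7.28 percentiles. By the highest-fold peak of each gene, KPNB1 and HST had the weakest calls of the 9 genes in that list.

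**Figure D3:**
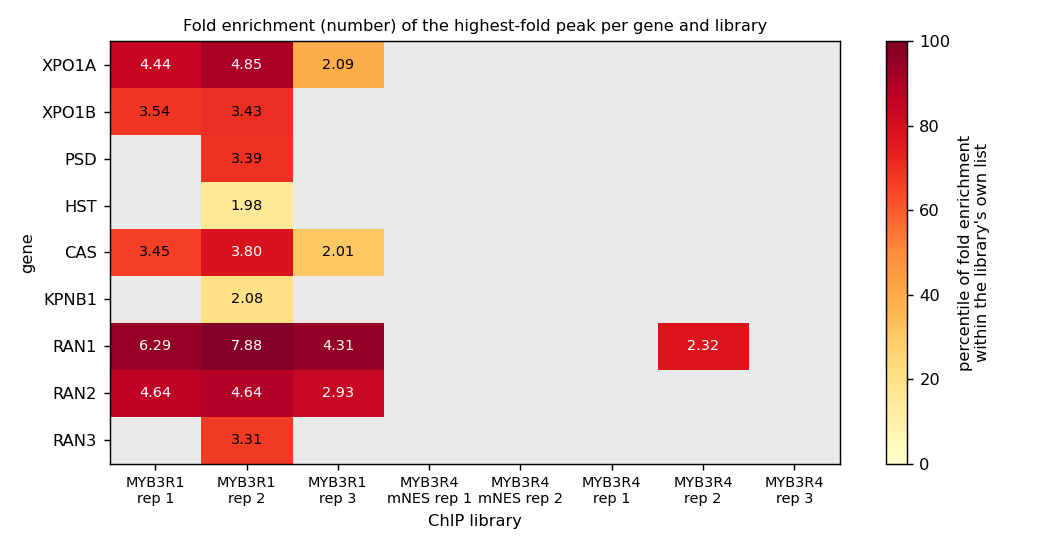
Fold enrichment (number) of the highest-fold peak in the window for each of the 9 genes (rows) in each ChIP library (columns), coloured by its percentile of fold enrichment within the library's own list; light grey means no peak. RAN1 is darkest in all MYB3R1 columns (95.2, 98.9 and 95.6 percentiles), MYB3R1 replicate 2 fills every row, and the MYB3R4mNES columns are empty.

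Within MYB3R1 replicate 2, where all 9 genes had a peak, the order by percentile was RAN1, XPO1A, RAN2, CAS, XPO1B, PSD, RAN3, KPNB1 and HST. XPO1A and RAN2 (91.1 and 89.4) and XPO1B, PSD and RAN3 (70.3, 69.2 and 67.2) stood close together there. In replicate 1 the order of the 5 genes with a peak was RAN1, RAN2, XPO1A, XPO1B and CAS, and in replicate 3 it was RAN1, RAN2, XPO1A and CAS. RAN1 was first in all 3, and RAN2 and XPO1A changed places between libraries. The median percentile of the genes with a peak was 84.3, 70.3 and 61.3 over 5, 9 and 4 of the 9 genes in replicates 1, 2 and 3, beside 57.0, 61.1 and 56.2 over all genes with a peak in the same libraries. These medians cover only genes that had a peak and are a description.

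The 9 genes had 25 peaks in their windows over all libraries, 24 of them in MYB3R1, which formed 15 sites when overlapping peaks were joined. Of the 15 sites, 10 were seen in 1 library and 4 in at least 3 libraries: the outer end of RAN1, the shared RAN1 and RAN2 site, XPO1A and the higher-coordinate side of CAS. These library counts leave out overlapping peaks with a summit beyond the window. Such peaks lay at the lower-coordinate ends of CAS (MYB3R1 replicates 2 and 3) and XPO1B (MYB3R1 replicate 3). Another lay on the higher-coordinate side of CAS (MYB3R4 replicate 2). Without MYB3R1 replicate 2 there were 6 sites. The highest-fold summit lay inside the gene for 4 of 5, 6 of 9 and 3 of 4 of these genes in MYB3R1 replicates 1, 2 and 3, beside 24.7%, 25.2% and 28.1% of all genes with a peak. Those inside lay 8 to 147 bp from the gene end. Summits at both ends of a gene were found at 2 of 5 genes in replicate 1 (CAS and RAN1), at 6 of 9 in replicate 2 and at 1 of 4 in replicate 3 (RAN1), beside 17.6%, 30.2% and 11.2% of all genes with a peak. At RAN1 the second of these is the site nearer to RAN2. No summit lay deeper within a gene than the window except those at XPO1B and CAS in MYB3R1 replicate 3, 240 and 401 bp inside.

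**Figure D4:**
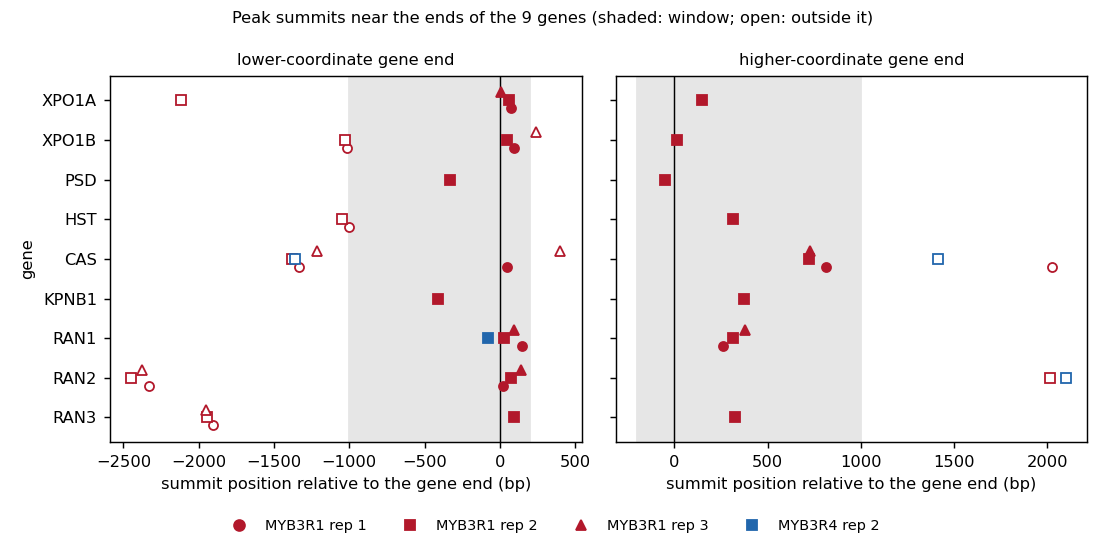
Position of every peak summit within 2500 bp of the 9 genes, in bp from the lower-coordinate end (left) and the higher-coordinate end (right), with the gene body to the right of the line at 0 in the left panel and to its left in the right panel. Shading marks the window, filled symbols are summits within it, open symbols summits beyond it, and colour and shape give the library. XPO1A, XPO1B, RAN1, RAN2 and RAN3 have MYB3R1 summits just inside the lower-coordinate end, and CAS has filled symbols 720 to 815 bp outside its higher-coordinate end and 50 bp inside the other, with open ones beyond the window on both sides.

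A list of 58 other genes of nuclear transport held 9 importin alpha genes, 9 other receptors of the importin beta family, 9 genes of Ran cofactors with RAN4, and 31 genes of nucleoporins and proteins at the pore. Of the 58, 38, 53 and 29 had a peak in MYB3R1 replicates 1, 2 and 3, or 65.5%, 91.4% and 50%, beside 43.6%, 65.9% and 29.5% of all genes. None of the 58 had one in MYB3R4mNES replicates 1 and 2, beside 0.612% and 0.747% of all genes. In MYB3R4 replicates 1, 2 and 3, 0, 7 and 0 of them had one, the 7 being 12.1%, beside 1.29%, 9.12% and 1.3% of all genes. In at least 2 MYB3R1 libraries a peak was found at 6 of 9 importin alpha genes, 7 of 9 receptors, 5 of 9 Ran cofactor genes and 21 of 31 nucleoporin genes, 39 of the 58 in all (67.2%), beside 44.8% of all genes and 5 of the 9 described here. RANGAP1 (AT3G63130), which activates the GTPase of Ran, had peaks of 5.25, 6.15 and 3.68 fold in MYB3R1 replicates 1, 2 and 3 and of 2.15 fold in MYB3R4 replicate 2, the same libraries as RAN1. IMPA-6 (AT1G02690), IMPA-8 (AT5G52000), AT3G59020 and NUP1 (AT3G10650) had peaks in these 4 libraries as well, and all 5 were named after their values were seen. RANGAP2 (AT5G19320) and RAN4 (AT5G55080), likewise named afterwards, were among 5 of the 58 genes with a peak in no library. None of the 58 had peaks in 5 or more libraries.

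**Figure D5:**
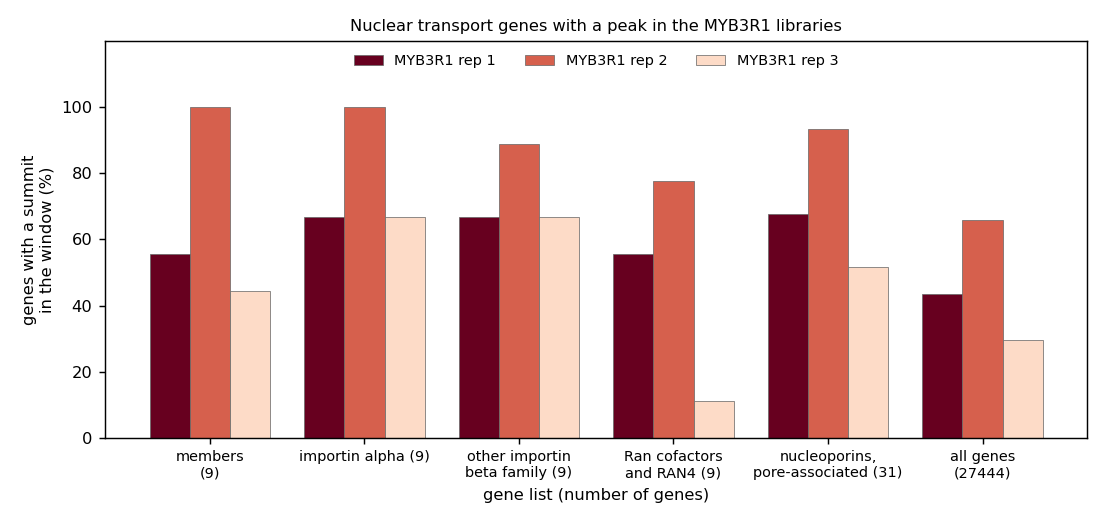
Percent of genes with a peak summit in the window in MYB3R1 replicates 1, 2 and 3 (bars), for the 9 exportin, importin beta and Ran genes (members), 4 lists of other nuclear transport genes and all genes, with the number of genes in brackets. The members' bars (55.6%, 100% and 44.4%) lie above those of all genes (43.6%, 65.9% and 29.5%), and Ran cofactors have the lowest bar in replicate 3 (11.1%). In replicates 1 and 3 importin alpha and the other importin beta family (66.7% in both) and nucleoporins (67.7% and 51.6%) stand above the members. In replicate 2 no list does.

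RAN1 had peaks in the most libraries of the 9 genes, and the genes most like it over the genome were looked up. Likeness was measured as the Euclidean distance in percentile of fold enrichment over the 8 libraries, with 0 for no peak. The closest genes were AT4G16980 (distance 3.46), AT4G01860 and AT4G01870 (3.53, sharing their peaks) and GLR5 (AT2G32400, annotated as a glutamate receptor) and AXL (AT2G32410, an AXR1-like gene; 3.68, also sharing theirs). All had peaks in the same 4 libraries as RAN1. At AT4G16980 the peaks were 7.64, 7.65 and 5.34 fold in replicates 1, 2 and 3 of MYB3R1 and 2.35 fold in replicate 2 of MYB3R4. A peak in at least 4 libraries was found at 5.88% of all genes.

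The counts were repeated with lists of equal length. With each list cut to its 227 peaks of highest -log10 p, a single gene of the 9 kept a peak, RAN1 in MYB3R1 replicate 2, and 0 of 9 had one in at least 2 MYB3R1 libraries, beside 1.16% of all genes. At that length 1.16%, 1.18% and 1.19% of all genes had a peak in MYB3R1 replicates 1, 2 and 3. A set of 9 genes can therefore show little there. With the 3 MYB3R1 lists brought to 7089 peaks, a setting chosen after the data were seen, replicates 1, 2 and 3 had peaks at 5, 7 and 4 of the 9 genes, beside 29.8%, 30.9% and 29.5% of all genes, and 5 of 9 kept a peak in at least 2 of them, beside 29.8%. XPO1A and XPO1B are close paralogs, as are RAN1, RAN2 and RAN3, and the labels do not say how reads that match more than 1 copy were treated.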

How the data were processed

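Peaks of 8 ChIP libraries were analysed; the 7 input samples have no file used here. The submitters' processing notes name Bowtie2, Picard, Trimmomatic and FastQC, and TAIR10 as the build; which peak caller was used is not given in these sources. Per the file names, the authors extended reads to 400 bp and called peaks against input. The columns deposited by the authors held, for each peak, a fold enrichment over background (a ratio), a -log10 p-value, a -log10 q-value, a score (10 times the last, rounded down) and, as another column, the summit's distance from the peak start. The pairing of ChIP and input libraries is not stated, and MYB3R4 alone has fewer input samples than ChIP libraries.

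Peaks on chromosomes 1 to 5 were joined to the 27444 nuclear protein-coding genes of a RefSeq table of TAIR10.1, which differs in name from the peaks' build, so none of its coordinates is printed. As a check of shared coordinates, the share of summits up to 500 bp outside some gene was 21.5% to 54.0% per library, and 14.9% to 24.7% after all genes were moved by 10000 bp. Of the 9 genes, 7 had a symbol in the table; KPNB1 is a synonym there and CAS is named by the rule. Positions are 1-based. Percentiles rank nuclear peaks by fold enrichment within a list. Fisher's exact test (scipy 1.17.1) was run for all genes with Benjamini-Hochberg adjustment; the assignment was tested on simulated data. The rule names the members by locus alone, but they, the gene lists and the tests were chosen with earlier results of these data known. Named genes were all members, other transport genes with peaks in at least 5 libraries (none), the 5 genes most like RAN1, and a few said to be named afterwards. A planned search for motifs in promoters was not run, because no sequence was at hand. Alternatives were other windows (500 and 2000 bp), any part of the peak, -log10 q of at least 5 or 10, equal list lengths, the nearest gene end, libraries left out, 1 style of file name, and pairing by replicate number.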

Additional observations from a re-analysis of the deposited data

How the results depend on the processing

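On average, MYB3R1 libraries had peaks at more of the 9 genes than MYB3R4 libraries in all settings tried. The mean share of all genes with a peak was likewise higher, 46.3% in MYB3R1 and 3.9% in MYB3R4 libraries. For the 9 genes the difference of the mean number per library was 5.67, 4.17 to 6.67 with a library left out. With lists of 227 peaks it was 0.333, from RAN1 in MYB3R1 replicate 2 alone. With those lists 0 of the 9 genes instead of 5 had a peak in at least 2 MYB3R1 libraries. The share of all genes was then 1.16% instead of 44.8%, and the 15 peak sites became 1. With a MYB3R1 library left out, 4 to 5 of the 9 had a peak in at least 2 of the others, beside 27.2% to 42.4% of all genes. With any library left out there were 6 to 15 sites, 6 without MYB3R1 replicate 2. In the other settings that kept all libraries the difference moved by less than the spread between libraries. The count of genes in at least 2 MYB3R1 libraries and that of sites moved by at most 1.5 times. There were 10 sites with -log10 q of at least 10 and with the nearest gene end only. The number of libraries moved more for some single genes. With 2000 bp it went from 1 to 3 for RAN3 and from 1 to 2 for HST. With 500 bp it went from 3 to 1 for CAS, and with -log10 q of at least 10 from 1 to 0 for HST. In MYB3R4mNES and MYB3R4 none of the 9 genes had a peak in at least 2 libraries in any setting. With the main setting 0.434% and 1.4% of all genes had one. With a MYB3R4mNES library left out that count cannot be made. The difference in genes with a peak, MYB3R4mNES minus MYB3R4, was -0.333, -0.5 to 0 with a library left out. Within the first style of file name (MYB3R1 and MYB3R4 replicates 1 and 2) the MYB3R1 minus MYB3R4 difference was 6.5 genes, and within the other, with 1 library each, 4. Both MYB3R4mNES libraries had the other style, as did MYB3R4 replicate 3 alone of its group. Within that style the difference MYB3R4mNES minus MYB3R4 was 0. Over all libraries this comparison is in part one of file styles. With the replicate number as a block (mean difference within pairs) the differences were 5.67 for MYB3R1 minus MYB3R4 and -0.5 for MYB3R4mNES minus MYB3R4. The latter leaves out MYB3R4 replicate 3, which has no MYB3R4mNES partner, and equals the value without that library. Same-numbered MYB3R1 and MYB3R4 libraries did not deviate together (correlations over genes of -0.083, -0.0495 and 0.0302 for replicates 1, 2 and 3), so the numbers were not taken to pair them. For MYB3R4mNES and MYB3R4 the correlation was 0.0501 for replicates 1 and 2, where 2 libraries per group can only mirror each other. Depth is unknown and limits every absence of a peak.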
